A study of Mus musculus with 3 samples.

Results

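Regulatory T cells that express the transcription factor Foxp3 were examined in single-cell RNA-seq libraries of mouse spleen. A barcode was counted as a Foxp3+ T cell when it held at least 1 unique molecular identifier (UMI, the tag that counts 1 captured RNA molecule) of Cd3d, Cd3e or Cd3g and at least 1 of Foxp3, with no UMI of Cd79a, Cd79b, Cd8a or Cd8b1. All barcodes kept had at least 500 UMIs and 200 detected genes and under 10% mitochondrial UMIs. This rule found 2273 Foxp3+ T cells among 35739 barcodes. They were 1381 cells in the IR_HSO library, 772 in the IR library and 120 in the Control library. The exclusion on Cd79 and Cd8 UMIs left out a further 255 barcodes with Cd3 and Foxp3 in IR_HSO, 152 in IR and 130 in Control. In Control more such barcodes were thus left out than kept, unlike in the irradiated libraries.

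The 3 groups were 1 library each of spleen from wild-type (WT) mice. Mice of the IR_HSO group received 8.5 Gy of radiation and HSO, which the series title spells out as hemp seed oil. Mice of the IR group received the same dose with what the label calls a colvent control, read here as the vehicle. Control mice were not irradiated. The labels used here do not give the interval after irradiation, the dose or route of HSO, or the number, age or sex of the mice in each library. No difference below therefore has a replicate check. Intervals are exact 95% intervals for counting error, and they do not cover differences between mice or between library preparations.

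Foxp3 is the lineage-defining factor of regulatory T cells, the CD4 T cells that restrain other lymphocytes. These cells depend on interleukin 2, which they capture through the high-affinity receptor chain Il2ra, and they act through inhibitory surface proteins such as Ctla4 and through secreted mediators. In the spleen they range from resting cells, which carry the transcription factor Lef1, to effector cells with high Icos, Tnfrsf4 and Maf. Ionizing radiation damages DNA, and the tumour suppressor p53 then turns on genes for cell cycle arrest and cell death.

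The libraries held 45636807 UMIs in IR_HSO, 50836313 in IR and 47298108 in Control. Foxp3+ T cells had a median of 3540 UMIs in IR_HSO, 3436 in IR and 4830 in Control. The irradiated libraries also stood apart from Control in makeup and quality. Mitochondrial UMIs put 16.5% of IR_HSO barcodes, 4.76% of IR barcodes and 3.75% of Control barcodes over the limit. Transcripts of 6 exocrine pancreas genes stood at 353 counts per 1e6 UMIs (CPM) in IR_HSO Foxp3+ T cells and 2118 CPM in IR ones, and all 6 were at 0 in Control. The IR level rests largely on 1 barcode, which held 11377 of the 15191 UMIs of a wider set of pancreatic genes. Markers of B cells stood at 250 CPM in IR_HSO Foxp3+ T cells, 260 CPM in IR and 1599 CPM in Control, with none of the 7 genes at 0. The part of these transcripts in the results was not tested. Barcodes scored as likely doublets were 15.4% of Foxp3+ T cells in IR_HSO, 19.6% in IR and 2.5% in Control. Leaving them out put 38 single-gene ratios outside their counting interval, and 329 stayed inside. Values without likely doublets are given only beside some ratios that they moved by more than 1.5-fold. The libraries shared 54 barcode sequences between IR_HSO and IR, 34 between IR_HSO and Control and 44 between IR and Control, and 1 of these was a Foxp3+ T cell in both IR_HSO and IR.

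The identity of the cells was checked against 5 markers that the rule did not use: Ikzf2 (the factor Helios), Il2ra, Ctla4, the costimulatory receptor Tnfrsf4 and the folate receptor family member Izumo1r. Each Foxp3+ T cell with enough depth was thinned to 2000 UMIs, which left out 120, 116 and 5 cells of IR_HSO, IR and Control. The share with at least 2 of the other 5 markers was then 86.1% in Foxp3+ T cells of IR_HSO, 80.8% in IR and 70.4% in Control. In Foxp3- CD4 T cells of the same libraries the shares were 41.8%, 21.2% and 8.79%. In barcodes with the NK cell genes Ncr1 or Klrb1c and no Cd3 they were 3.82%, 1.61% and 0%, where 0 of 221 barcodes allows up to 1.36%. The data thus go with the label in all 3 libraries. The Foxp3- CD4 cells are those with a Cd4 UMI and no Foxp3 UMI, and they include regulatory T cells whose Foxp3 RNA was not captured.

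The rule has a threshold of 1 Foxp3 UMI. In IR_HSO, 651 cells held 1 Foxp3 UMI, 321 held 2 and 409 held 3 or more. In IR these numbers were 414, 178 and 180, and in Control 50, 28 and 42. Ikzf2 just outside the threshold, in Foxp3- CD4 cells, stood at 463 CPM in IR_HSO, 227 CPM in IR and 107 CPM in Control. Cells with 1 Foxp3 UMI had 1326, 1132 and 1081 CPM of Ikzf2 in the same order of libraries. Cells with 3 or more had 1643, 1696 and 1098 CPM. Tnfrsf4 was at 232, 112 and 17.7 CPM in Foxp3- CD4 cells, at 491, 460 and 162 CPM in cells with 1 Foxp3 UMI and at 959, 757 and 175 CPM in those with 3 or more. Ikzf2 thus differed more between 0 and 1 Foxp3 UMI than above 1, while in IR_HSO Tnfrsf4 at 1 UMI lay nearer to its level at 0. Without thinning, at least 2 of the other 5 markers were found in 84.3%, 76.6% and 66.0% of cells with 1 Foxp3 UMI, and in 98.3%, 96.1% and 95.2% of cells with 3 or more.

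**Figure D1:**
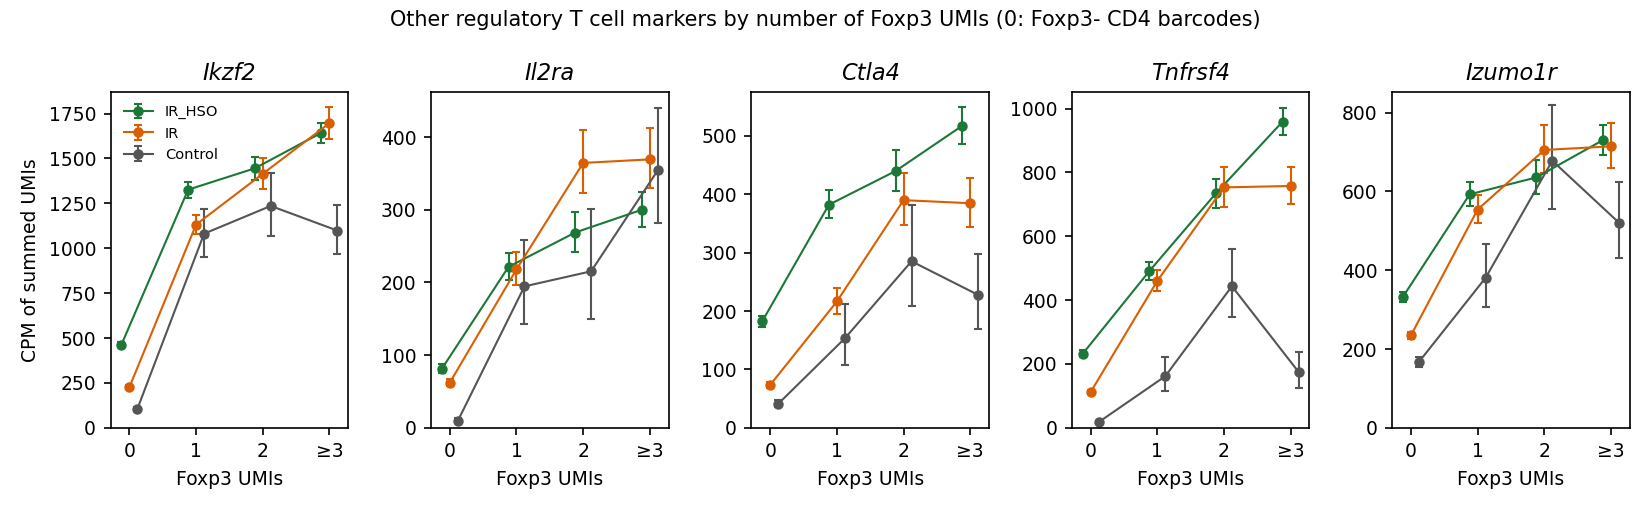
CPM (vertical axes) of 5 markers in barcodes grouped by their number of Foxp3 UMIs (horizontal axes), with 0 for Foxp3- CD4 barcodes; points are UMIs summed within 1 library and lines are exact 95% counting intervals. Ikzf2 is lowest at 0 UMIs in each library, at 463 CPM in IR_HSO, 227 CPM in IR and 107 CPM in Control, and is above 1000 CPM from 1 UMI on.

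Foxp3+ T cells made up a larger share of the T cells in IR_HSO than in IR, and a larger share in IR than in Control. Among barcodes with Cd3 and no Cd79, they were 18.0% in IR_HSO (1381 of 7693; interval 17.1 to 18.8%), 8.44% in IR (772 of 9149; 7.88 to 9.03%) and 4.68% in Control (120 of 2562; 3.90 to 5.57%). The IR_HSO share was 2.13 times that of IR (1.95 to 2.33) and 3.83 times that of Control (3.18 to 4.66). The IR share was 1.80 times that of Control (1.48 to 2.20). The 3 intervals of the shares did not overlap.

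The denominator itself differed between the libraries. A Cd8a or Cd8b1 UMI was found in 11.5% of T barcodes in IR_HSO, 10.2% in IR and 38.0% in Control. T barcodes with no UMI of Cd4, Cd8 or Foxp3 were 44.0% in IR_HSO, 53.6% in IR and 24.8% in Control. Of T barcodes without Cd8, Foxp3+ cells were 20.3%, 9.40% and 7.55%. On that denominator IR was 1.24 times Control (1.03 to 1.52), and IR_HSO was 2.16 times IR (1.97 to 2.36). Of all retained barcodes they were 13.05% in IR_HSO, 6.01% in IR and 1.32% in Control. These are shares, so more regulatory T cells cannot be told apart from fewer other cells.

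Median depth was highest in Control, where the share was lowest. After thinning each T barcode to 1000 UMIs, Foxp3+ cells were 8.26% in IR_HSO, 3.74% in IR and 2.05% in Control, with 263, 564 and 28 shallower barcodes left out. The ratios were 2.21 for IR_HSO over IR, 4.03 for IR_HSO over Control and 1.82 for IR over Control. Summed over all T barcodes, Foxp3 stood at 106 CPM (102 to 109) in IR_HSO, 44.5 CPM (42.3 to 46.7) in IR and 25.0 CPM (22.4 to 27.8) in Control. The order was the same when no single barcode had to be called positive.

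Barcodes that should lack Foxp3 gave a measure of stray UMIs. A Foxp3 UMI was found in 27 of 1314 NK barcodes in IR_HSO (2.05%), 15 of 1752 in IR (0.856%) and 0 of 246 in Control, where a count of 0 allows up to 1.22%. Median depths of these NK barcodes were 3441, 2734.5 and 3861 UMIs, against 3369, 3309 and 5143 UMIs in T barcodes. Every share of Foxp3+ T cells was above the NK share of its library. Among Cd79+ barcodes without Cd3, Foxp3 was found in 7 of 168 in IR_HSO, 0 of 236 in IR and 9 of 3729 in Control. Barcodes with Cd3 and Cd8 UMIs held a Foxp3 UMI in 12.2% of cases in IR_HSO, 7.36% in IR and 2.67% in Control. Their IR_HSO share was 4.57 times that of Control (2.95 to 7.30). For Foxp3+ cells among T barcodes without Cd8 the same ratio was 2.69 (2.23 to 3.26). In IR the intervals of both shares overlapped, at 5.77 to 9.23% with Cd8 and 8.78 to 10.1% without.

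**Figure D2:**
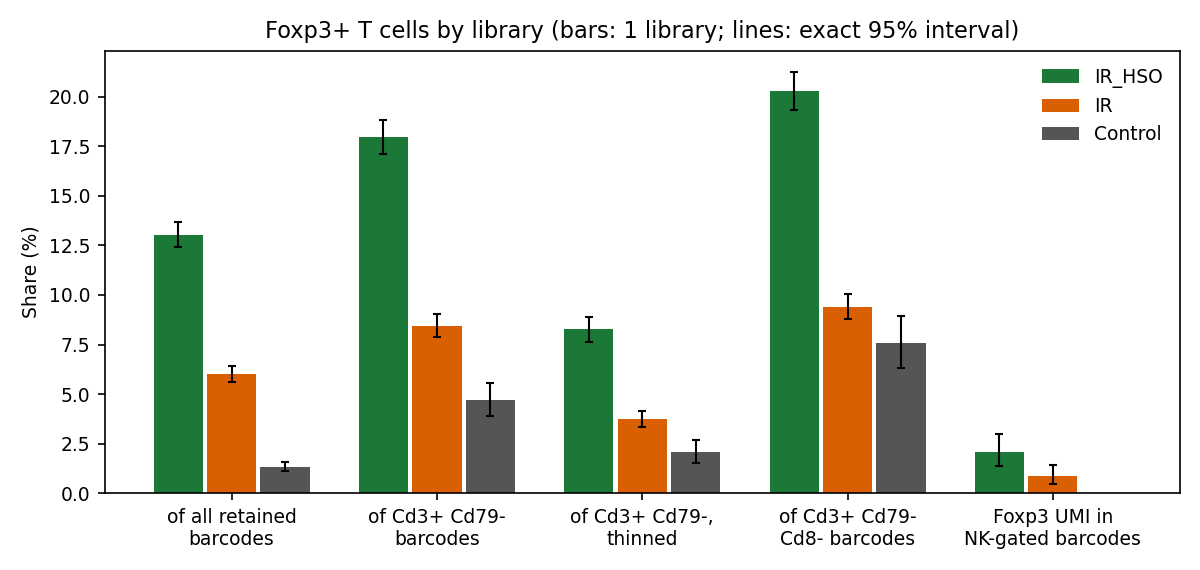
Share of barcodes in percent (vertical axis) that were Foxp3+ T cells, over 4 denominators, and share of NK-gated barcodes with a Foxp3 UMI, in 1 library per group (bars) with exact 95% counting intervals (lines; none drawn for the share of 0). IR_HSO is highest on each denominator, at 18.0% of T barcodes against 8.44% in IR and 4.68% in Control.

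A Cd4 UMI was found in 51.3% of Foxp3+ T cells in IR_HSO, 46.4% in IR and 65.0% in Control. Summed identity genes in cells with a Cd4 UMI were 1.05-fold those of cells without one in IR_HSO, 1.03-fold in IR and 0.821-fold in Control. Foxp3, an identity gene that the rule requires in every cell, was itself 0.841-, 0.814- and 0.740-fold. Cells with a Cd4 UMI were also deeper, with medians of 3975, 3910 and 5328 UMIs against 3150, 3060.5 and 3741. Single genes differed more in Control, where Tnfrsf4 was 0.417-fold (0.299 to 0.584) in cells with a Cd4 UMI.

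Within each library, Foxp3+ T cells were set against the Foxp3- CD4 cells. Genes were counted as measured when either group reached 20 CPM and as higher or lower when the CPM differed at least 1.5-fold. Of a list of 20 regulatory T cell identity genes, Foxp3 among them by the rule, 16 were higher in Foxp3+ T cells of IR_HSO, 20 of 20 in IR and 19 of 19 measured in Control. Over all genes measured, 4.95% were higher and 2.58% lower in IR_HSO, 7.1% and 3.62% in IR, and 14.9% and 5.85% in Control. The fold differences were smallest in IR_HSO and largest in Control. Ikzf2 was 3.15-fold higher in IR_HSO, 5.93-fold in IR and 10.6-fold in Control. Il2ra was 3.19-, 4.69- and 26.8-fold higher in the same libraries.

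The genes that separated Foxp3+ T cells from Foxp3- CD4 cells in every library included receptors of effector regulatory T cells. Klrg1, an inhibitory receptor of differentiated T cells, stood at 39.0, 46.9 and 43.0 CPM in Foxp3+ T cells of IR_HSO, IR and Control, against 4.91, 5.90 and 1.38 CPM in Foxp3- CD4 cells. Its levels in Foxp3+ T cells were alike in the 3 libraries. Itgae, the integrin chain that binds E-cadherin, was 5.86-fold higher in IR_HSO, 10.1-fold in IR and 45.1-fold in Control. Lrrc32, which holds latent TGF-beta on the cell surface, was 4.89-, 9.73- and 19.3-fold higher. Epcam, Gsta4, Bicd1, Bmyc, Swap70, Tnfrsf9, Tnfrsf8 and Il1rl1, the receptor of interleukin 33, were also among the 15 genes chosen by their lowest interval bound, with Ankrd55, Tnfrsf4, Il2ra and Ikzf2.

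On the lower side were genes of naive T cells. Dapl1 stood at 4.82, 10.4 and 19.1 CPM in Foxp3+ T cells of IR_HSO, IR and Control, against 19.6, 59.3 and 266 CPM in Foxp3- CD4 cells. Igfbp4, an insulin-like growth factor binding protein, was 0.258-fold in IR_HSO, 0.293-fold in IR and 0.182-fold in Control. Themis, which sets T cell receptor signalling in thymocytes, stood at 48.0, 59.5 and 44.6 CPM in Foxp3+ T cells and at 130, 145 and 201 CPM in Foxp3- CD4 cells. Of the list of resting and naive T cell genes, 9 of 15 measured were lower in Foxp3+ T cells of IR_HSO and 0 higher. In IR 7 of 16 were lower and 0 higher, and in Control 8 of 16 were lower and 1 higher.

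Comparing libraries, some identity genes were higher in the irradiated mice and 0 were past 1.5-fold lower. Of the 20 genes, 6 were at least 1.5-fold higher in IR_HSO than in Control and 0 lower, with a median log2 ratio of 0.38. Over all 6766 genes measured there, 16.3% were higher and 8.35% lower, with a median of 0.04. In IR over Control, 8 of 20 were higher and 0 lower (median 0.36), against 12.8% higher and 6.3% lower of 6670 genes (median 0.05). In IR_HSO over IR 0 of 20 were higher or lower (median 0.06), against 4.31% higher and 4.26% lower of 6666 genes (median 0.01). These shares of all genes are the background for each later list count between libraries in Foxp3+ T cells.

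Il2ra was at 259 CPM in IR_HSO, 292 CPM in IR and 258 CPM in Control, so its level hardly differed between the libraries. Ikzf2 was at 1461, 1346 and 1126 CPM. It was 1.30-fold higher in IR_HSO than in Control (1.20 to 1.40) and 1.20-fold higher in IR (1.10 to 1.30). Nrp1, the semaphorin coreceptor carried by thymus-derived regulatory T cells, was at 163, 155 and 223 CPM. It was 0.733-fold in IR_HSO over Control (0.613 to 0.881) and 0.694-fold in IR over Control (0.575 to 0.844).

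In Foxp3- CD4 cells the same identity genes differed more between libraries. Of 17 measured, 17 were higher in IR_HSO than in Control (median log2 ratio 2.12), and in IR over Control 13 of 16 were higher (median 1.76). In IR_HSO over IR 7 of 17 were higher (median 0.48). The background there was 16.9% higher and 4.75% lower in IR_HSO over Control, 11.4% and 2.46% in IR over Control, and 6.16% and 5.19% in IR_HSO over IR. Ikzf2 in Foxp3- CD4 cells was 4.35-fold higher in IR_HSO than in Control and 2.04-fold higher in IR_HSO than in IR. The difference of the log2 ratios of Ikzf2, Foxp3+ minus Foxp3- cells, was -1.74 (-1.92 to -1.57) for IR_HSO over Control and -0.91 (-1.003 to -0.82) for IR_HSO over IR. How far uncaptured Foxp3 RNA takes part in this was not tested.

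Several genes of a list of tumour necrosis factor receptor family members and other costimulatory genes were higher in Foxp3+ T cells of both irradiated libraries. Of 10 measured in IR_HSO over Control, 6 were higher and 1 lower (median log2 ratio 0.81), and in IR over Control 5 of 9 were higher and 1 lower (median 0.66). Cd226, 1 of these 5, is not a member of that family. Tnfrsf4 (OX40) was at 706 CPM in IR_HSO, 606 CPM in IR and 237 CPM in Control, which made 2.97-fold (2.53 to 3.53) and 2.55-fold (2.16 to 3.04) over Control. Tnfrsf18 (GITR) was at 533, 454 and 202 CPM, and Tnfrsf9 (4-1BB) at 263, 230 and 98.8 CPM. For these 3 genes Control was lowest and the irradiated libraries lay close to each other.

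Cd27, the family member of naive and central memory cells, went the other way. It stood at 242 CPM in IR_HSO, 244 CPM in IR and 408 CPM in Control, 0.594-fold (0.520 to 0.681) and 0.599-fold (0.519 to 0.692) of Control. Between the irradiated libraries, Tnfrsf8 (CD30) was the 1 member past 1.5-fold, at 26.9 CPM in IR_HSO against 12.3 CPM in IR (2.19-fold, 1.54 to 3.18).

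Inhibitory receptors were higher in IR_HSO. Of 9 measured, 7 were higher than in Control and 0 lower (median log2 ratio 0.87). In IR over Control 3 of 8 were higher and 0 lower (median 0.41). In IR_HSO over IR 3 of 10 were higher and 1 lower (median 0.53). Ctla4, which removes costimulatory ligands from antigen-presenting cells, was at 441 CPM in IR_HSO, 301 CPM in IR and 213 CPM in Control. It was 2.07-fold higher in IR_HSO than in Control (1.74 to 2.48), 1.41-fold higher in IR than in Control (1.18 to 1.70) and 1.47-fold higher in IR_HSO than in IR (1.36 to 1.58). The 3 libraries were thus in one order for Ctla4, with Control lowest.

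Pdcd1 (PD-1) was at 56.3 CPM in IR_HSO, 33.4 CPM in IR and 30.3 CPM in Control. Without likely doublets its log2 ratio in IR over Control was 0.76, against 0.14 with them. Tigit was at 22.3, 6.13 and 11.1 CPM, and Lag3 at 21.4, 11.3 and 7.96 CPM. In IR_HSO over IR, Tigit was 3.63-fold (2.26 to 6.13), Lag3 1.89-fold (1.30 to 2.80) and Pdcd1 1.68-fold (1.35 to 2.11) higher. Foxp3- CD4 cells differed in the same direction and by more: Tigit was 7.25-fold, Lag3 3.58-fold and Pdcd1 3.39-fold higher in IR_HSO than in IR. Thinned to equal depth, a Ctla4 UMI was found in 50.3% of Foxp3+ T cells in IR_HSO, 35.4% in IR and 27.8% in Control.

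**Figure D3:**
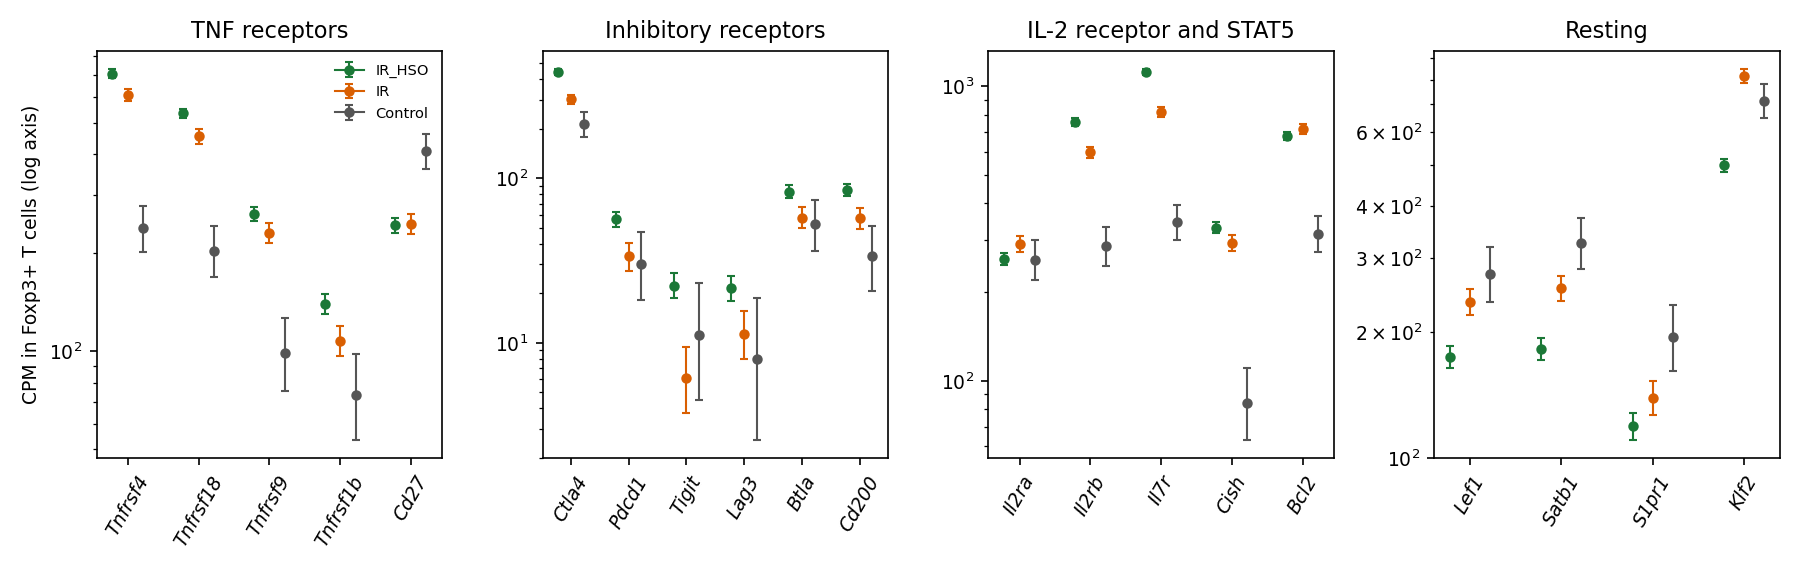
CPM of genes in Foxp3+ T cells (vertical axes, log scale) in 1 library per group. The panels hold TNF receptor family, inhibitory receptor, interleukin 2 receptor and STAT5 (with Il7r), and resting cell genes. Points are summed UMIs and lines exact 95% counting intervals. Tnfrsf4 is at 706 CPM in IR_HSO and 606 CPM in IR against 237 CPM in Control, while Lef1 is at 174 CPM in IR_HSO and 236 CPM in IR against 276 CPM in Control.

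A list of interleukin 2 receptor, STAT5 and related cytokine receptor genes had 7 of 17 higher in IR_HSO over Control (median log2 ratio 0.41). In IR over Control 7 of 17 were higher (median 0.39), and 0 were lower in either comparison. Il2rb, the signalling chain shared with the interleukin 15 receptor, stood at 756 CPM in IR_HSO, 597 CPM in IR and 287 CPM in Control. Cish, a feedback inhibitor induced by STAT5, stood at 332, 293 and 84.4 CPM, and Socs1 at 144, 141 and 74.9 CPM. Il7r, the interleukin 7 receptor chain, is in this list but is not a chain of the interleukin 2 receptor. The same gene is also counted in the list of resting genes and in that of glucocorticoid and FOXO genes. Il7r stood at 1115, 817 and 346 CPM. It was 3.23-fold higher in IR_HSO than in Control (2.82 to 3.71), 2.36-fold in IR (2.06 to 2.73) and 1.36-fold higher in IR_HSO than in IR (1.30 to 1.43). The common chain Il2rg was at 301, 316 and 330 CPM, and its intervals against Control held 1 in both cases.

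Bcl2, the antiapoptotic protein that these cytokines maintain, was at 680 CPM in IR_HSO, 717 CPM in IR and 315 CPM in Control. Its level in Foxp3- CD4 cells was 1403, 1265 and 195 CPM. Foxp3+ T cells thus had less Bcl2 than Foxp3- CD4 cells in both irradiated libraries and more in Control. The difference of log2 ratios, Foxp3+ minus Foxp3- cells, was -1.74 (-1.97 to -1.51) for IR_HSO over Control and -1.52 (-1.75 to -1.28) for IR over Control. Socs3, another feedback inhibitor, was 1.62-fold (1.42 to 1.85) and the kinase Jak3 1.53-fold (1.19 to 1.97) higher in IR_HSO than in IR.

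Transcriptional targets of p53 were higher in Foxp3+ T cells of both irradiated libraries. Of 21 measured of 27 listed, 14 were higher and 0 lower in IR_HSO over Control (median log2 ratio 0.92), and 16 were higher and 1 lower in IR over Control (median 0.78). In IR_HSO over IR 1 was higher and 1 lower (median -0.01). Cdkn1a, the cell cycle inhibitor p21, was at 126 CPM in IR_HSO, 193 CPM in IR and 3.19 CPM in Control. Its ratio to Control was 39.6 in IR_HSO (10.9 to 327) and 60.5 in IR (16.7 to 500), wide because Control held few Cdkn1a UMIs. Cdkn1a was 0.655-fold in IR_HSO over IR (0.588 to 0.729). At 2000 UMIs per cell it was detected in 17.2% of cells in IR_HSO, 24.2% in IR and 0 of 115 in Control, which allows up to 2.61%.

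Phlda3, an inhibitor of Akt, was at 71.4 CPM in IR_HSO, 88.3 CPM in IR and 3.19 CPM in Control. Psrc1 was at 40.4 and 39.9 CPM and had no UMI in Control; set against a floor of 3 UMIs summed over the Control cells it was at least 8.45-fold higher in IR_HSO and at least 8.34-fold higher in IR. Zmat3, an RNA-binding p53 target, stood at 71.9, 74.2 and 15.9 CPM. Ccng1, the target cyclin G1, stood at 183, 169 and 78.0 CPM. Mdm2, the ubiquitin ligase that feeds back on p53, was 1.53-fold higher in both IR_HSO (1.07 to 2.27) and IR (1.06 to 2.28) than in Control. With barcodes that hold Cd79 or Cd8 UMIs kept, the log2 ratio of Mdm2 was -0.22 in IR over Control and near 0 in IR_HSO over Control. For each of these genes both irradiated libraries were above Control and lay close to each other.

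Sesn1, a stress-induced regulator of mTORC1, went against the rest of the list. It was at 98.8 CPM in IR_HSO, 62.9 CPM in IR and 129 CPM in Control, 0.487-fold in IR over Control (0.375 to 0.638) and 1.57-fold in IR_HSO over IR (1.34 to 1.85). Btg2 was at 490, 598 and 699 CPM and Pmaip1 (Noxa) at 29.1, 32.5 and 35.0 CPM, lower in irradiated cells by less than 1.5-fold. Without likely doublets the log2 ratio of Pmaip1 in IR_HSO over Control was 0.48, against -0.26 with them.

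The same targets were higher in Foxp3- CD4 cells, where 18 of 21 were higher in IR_HSO over Control (median 1.64) and 18 in IR over Control (median 1.66). Bax, the pore-forming mediator of apoptosis, was at 361 CPM in Foxp3+ T cells of IR_HSO, 451 CPM in IR and 132 CPM in Control. Foxp3- CD4 cells had 399, 501 and 106 CPM. The log2 ratio of Bax, Foxp3+ minus Foxp3- cells, differed by -0.46 (-0.80 to -0.11) for IR_HSO over Control and by -0.47 (-0.81 to -0.12) for IR over Control. For Cdkn1a the difference was -1.27 (-3.54 to 1.01) and -1.16 (-3.43 to 1.11), not distinguishable from 0 at this depth. In Control, 7 of 15 measured targets were already higher in Foxp3+ than in Foxp3- cells (median 0.57), against 2 of 21 in IR_HSO (median -0.04) and 3 of 21 in IR (median -0.08).

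**Figure D4:**
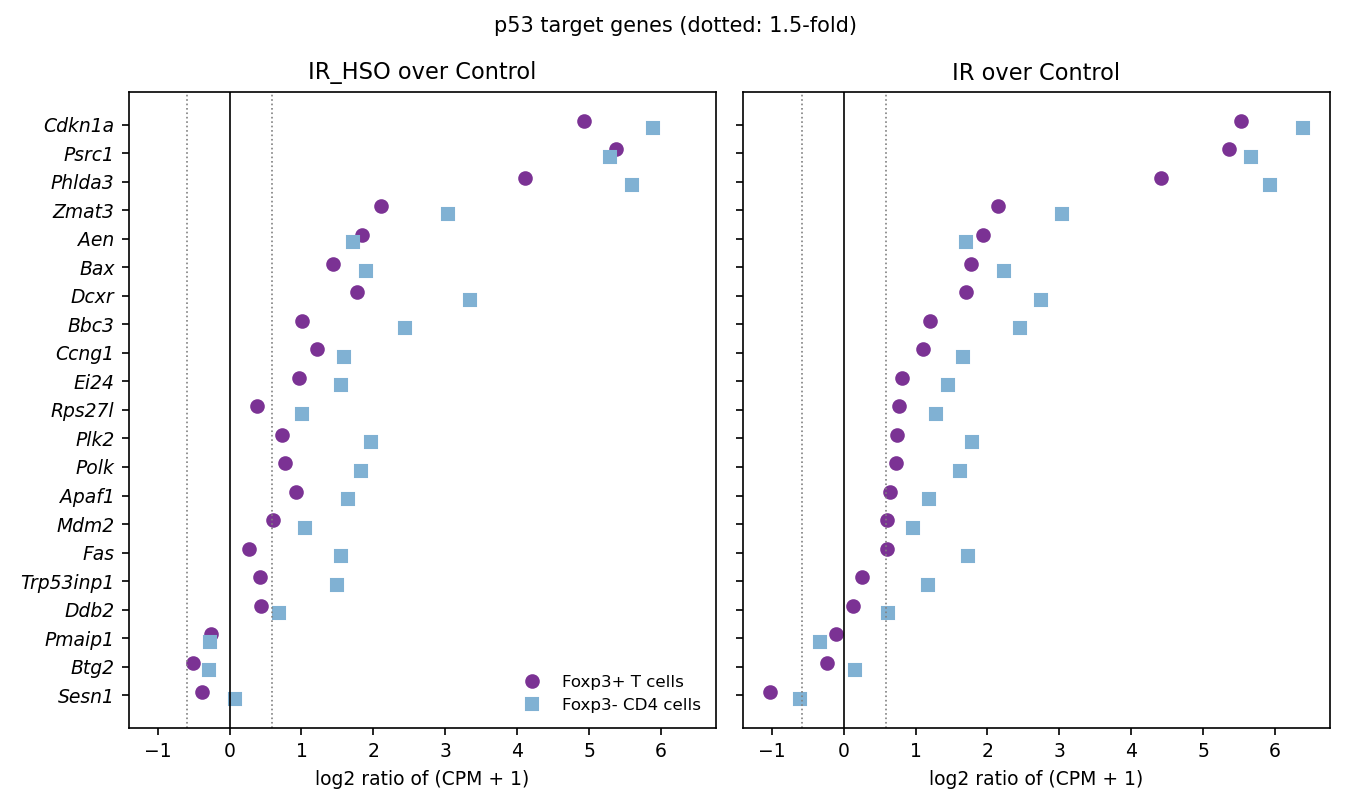
log2 ratio of CPM plus 1 (horizontal axes) of p53 target genes (rows) for IR_HSO over Control and IR over Control, in Foxp3+ T cells (circles) and Foxp3- CD4 cells (squares); dotted lines mark 1.5-fold, and each point compares 1 library with 1 library. Of 21 targets, 14 are past 1.5-fold higher in Foxp3+ T cells for IR_HSO and 16 for IR, and the median in Foxp3- cells is 1.64 and 1.66.

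Of the pro-apoptotic genes, 6 of 13 measured were higher and 0 lower in IR_HSO over Control (median log2 ratio 0.27), and 7 of 13 were higher in IR over Control (median 0.60). Bbc3 (Puma) was at 83.9 CPM in IR_HSO, 96.3 CPM in IR and 41.4 CPM in Control. Bcl2l11 (Bim) was at 73.2, 72.1 and 44.6 CPM, and the initiator scaffold Apaf1 at 52.2, 42.9 and 27.1 CPM. The death receptor Fas was at 61.6, 77.6 and 51.0 CPM. Both irradiated libraries were above Control for these 4 genes. Between IR_HSO and IR 0 of 13 pro-apoptotic genes were past 1.5-fold, with a median of -0.15. Of DNA damage sensing and repair genes, 2 of 16 were higher and 1 lower in IR_HSO over Control, and 3 of 16 higher and 1 lower in IR over Control, shares near or below the background. Antiapoptotic genes were higher in 3 of 9 cases in IR_HSO over Control and 4 of 10 in IR over Control.

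Granzymes and perforin led the suppressive effector molecules. Of this list, 10 of 17 measured were higher and 1 lower in IR_HSO over Control (median log2 ratio 0.87), 6 of 15 higher and 0 lower in IR over Control (median 0.43), and 3 higher and 3 lower of 17 in IR_HSO over IR (median 0.02). Gzma stood at 379 CPM in Foxp3+ T cells of IR_HSO, 584 CPM in IR and 17.5 CPM in Control, and Gzmb at 130, 130 and 6.37 CPM. Gzma in Foxp3- CD4 cells was at 407, 625 and 19.98 CPM. Summed NK cell markers, Gzma and Prf1 among them, stood at 823 CPM in Foxp3+ T cells of IR_HSO, 1267 CPM in IR and 119 CPM in Control, with none of the 6 at 0 in any library. In Foxp3- CD4 cells they stood at 922, 1339 and 149 CPM, and in NK barcodes at 12034, 16883 and 17904 CPM. Without likely doublets the log2 ratio of Gzma was 3.47 in IR_HSO over Control and 4.25 in IR over Control, against 4.36 and 4.98 with them. That of Gzmb was 3.02 and 3.53, against 4.15 and 4.15, and that of Prf1 was 0.81 and 1.36, against 1.87 and 2.36.

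Other molecules of that list are less shared with NK cells. Ebi3, a subunit of interleukins 27 and 35, was at 40.2 CPM in IR_HSO, 30.4 CPM in IR and 11.1 CPM in Control. Areg, the tissue repair factor amphiregulin, was at 28.6, 49.98 and 6.37 CPM in Foxp3+ T cells, against 6.16, 4.70 and 0.919 CPM in Foxp3- CD4 cells. It was 0.572-fold in IR_HSO over IR (0.459 to 0.713). Il1r2, the decoy receptor of interleukin 1 and a gene of the follicular regulatory list, was at 38.0, 25.1 and 1.59 CPM, and 1.51-fold higher in IR_HSO than in IR (1.17 to 1.97). The ectonucleotidases Nt5e, at 197, 150 and 186 CPM, and Entpd1, at 22.4, 22.1 and 17.5 CPM, differed by less than 1.5-fold. Tgfb1 was at 98.7, 132 and 97.2 CPM. Il10 did not reach 20 CPM in any library.

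Genes of effector regulatory T cells differed in both directions. In IR_HSO over Control 11 of 25 were higher and 5 lower (median log2 ratio 0.22), and in IR over Control 9 were higher and 2 lower (median 0.16). Bhlhe40, a transcription factor of activated T cells, was at 233 CPM in IR_HSO, 244 CPM in IR and 39.8 CPM in Control. Id2 was at 322, 394 and 139 CPM, Batf at 162, 138 and 82.8 CPM and Prdm1 (Blimp-1) at 34.7, 30.7 and 12.7 CPM. Control was lowest for each of these 4 factors.

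Icos, at 163 CPM in IR_HSO, 160 CPM in IR and 180 CPM in Control, and Maf, at 380, 362 and 409 CPM, did not differ past 1.5-fold. Irf4 was lower in both irradiated libraries, at 10.8, 13.2 and 27.1 CPM. The calcium-binding protein S100a4 was at 89.0, 136 and 201 CPM, 0.444-fold in IR_HSO over Control (0.365 to 0.543) and 0.655-fold in IR_HSO over IR (0.577 to 0.745). Lgals1 (galectin-1) was at 194, 346 and 309 CPM, and 0.561-fold in IR_HSO over IR (0.516 to 0.609). The chemokine receptor Cxcr3 was at 48.8, 60.1 and 87.6 CPM.

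More genes of resting T cells were lower than higher, most clearly in IR_HSO, and many were not past 1.5-fold. Of 15 measured, 8 were lower and 2 higher in IR_HSO over Control (median log2 ratio -0.66), 3 were lower and 2 higher in IR over Control (median -0.41), and 2 of 14 were lower in IR_HSO over IR (median -0.28). Not past 1.5-fold in either direction were 5 genes in IR_HSO over Control, 10 in IR over Control and 12 in IR_HSO over IR. The next 3 genes are examples from those lower in IR_HSO over Control. Lef1 was at 174 CPM in IR_HSO, 236 CPM in IR and 276 CPM in Control. The chromatin organizer Satb1 was at 182, 254 and 327 CPM, and S1pr1, the receptor for exit from lymphoid tissue, was at 119, 139 and 194 CPM. The order of the libraries was the same for these 3 genes, with IR_HSO lowest.

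Klf2, a factor that maintains S1pr1, was at 500 CPM in IR_HSO, 816 CPM in IR and 712 CPM in Control, 0.614-fold in IR_HSO over IR (0.582 to 0.647). The ratio in Foxp3- CD4 cells was 0.669. Ly6c1 was at 6.31, 18.4 and 44.6 CPM. Il7r and Igfbp4 were the 2 members past 1.5-fold higher in both irradiated libraries over Control. Igfbp4 stood at 100.5 CPM in IR_HSO, 178 CPM in IR and 43.0 CPM in Control. In Foxp3- CD4 cells 4 of 16 resting genes were lower and 2 higher in IR_HSO over Control (median -0.41).

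Homing receptors followed. In IR_HSO over Control 9 of 19 measured were lower and 2 higher (median log2 ratio -0.44), and in IR over Control 4 of 19 were lower and 3 higher (median -0.11). Ccr4, a receptor of skin and tissue homing, was at 12.3 CPM in IR_HSO, 9.51 CPM in IR and 39.8 CPM in Control. The integrin chains Itgb1, at 134, 129 and 244 CPM, and Itgb7, at 168, 165 and 266 CPM, were also highest in Control. Ccr6 was highest in IR_HSO, at 66.4 CPM, against 37.4 CPM in IR and 15.9 CPM in Control, and was 1.78-fold higher in IR_HSO than in IR (1.45 to 2.19). Cxcr6 was at 16.9, 37.7 and 36.6 CPM. Without likely doublets its log2 ratio was -2.01 in IR_HSO over Control and -1.55 in IR over Control, against -1.07 and 0.04 with them, and that of Ccr6 was 2.67 and 1.95, against 1.99 and 1.18.

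Follicular regulatory T cells share Cxcr5 and Bcl6 with follicular helper T cells. Cxcr5 was at 23.3 CPM in IR_HSO, 15.03 CPM in IR and 28.7 CPM in Control, and Bcl6 at 11.1, 11.04 and 11.1 CPM. Of 7 genes measured, 3 were higher in IR_HSO over IR (median log2 ratio 0.58), 3 in IR_HSO over Control and 1 of 6 in IR over Control. The genes higher in IR_HSO over IR were Tnfrsf8, Pdcd1 and Cxcr5. Summed markers of follicular helper cells were at 43.0, 28.2 and 41.4 CPM in Foxp3+ T cells and at 90.6, 24.8 and 26.9 CPM in Foxp3- CD4 cells.

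Genes that glucocorticoids and FOXO factors induce were higher in both irradiated libraries and highest in IR_HSO. In IR_HSO over Control 8 of 15 were higher and 0 lower (median log2 ratio 0.59), in IR over Control 7 higher and 1 lower (median 0.51), and in IR_HSO over IR 3 higher and 1 lower (median 0.25). Fkbp5, a cochaperone of the glucocorticoid receptor, was at 193 CPM in IR_HSO, 124 CPM in IR and 41.4 CPM in Control. Klf9 was at 92.7, 58.0 and 7.96 CPM and the clock gene Per1 at 55.5, 34.3 and 15.9 CPM. For these 3 genes IR_HSO was above IR by 1.56-fold (1.39 to 1.75), 1.60-fold (1.35 to 1.90) and 1.62-fold (1.30 to 2.02). Tsc22d3, another glucocorticoid target, was at 248, 248 and 174 CPM and did not differ between the irradiated libraries.

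Early genes of T cell receptor stimulation were lower in IR_HSO than in IR: 5 of 19 were lower and 0 higher (median log2 ratio -0.27). Jun was at 656 CPM in IR_HSO, 1153 CPM in IR and 895 CPM in Control. Fos was at 206, 331 and 301 CPM, Cd69 at 389, 603 and 585 CPM and Nr4a3 at 15.3, 33.4 and 20.7 CPM. Dusp1, a MAP kinase phosphatase that glucocorticoids also induce, was at 667, 687 and 247 CPM, high in both irradiated libraries. Of the early genes 4 were higher and 3 lower in IR_HSO over Control, and 6 higher and 1 lower in IR over Control. Of 17 T cell receptor signalling genes, 2 were higher and 1 lower in IR_HSO over Control, and 0 in either direction in IR over Control. Over all genes 16.3% were higher and 8.35% lower in IR_HSO over Control, and 12.8% and 6.3% in IR over Control.

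Subunits and feedback inhibitors of NF-kB, which Foxp3+ T cells need downstream of Tnfrsf4 and Tnfrsf18, were higher in 6 of 16 cases in IR_HSO over Control with 1 lower, and in 5 of 16 in IR over Control with 0 lower. Nfkbia, the inhibitor that NF-kB itself induces, was at 580 CPM in IR_HSO, 757 CPM in IR and 344 CPM in Control. Nfkb2 was at 74.1, 72.4 and 41.4 CPM.

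Heat shock chaperones were lower in IR_HSO than in both other libraries. Of 11 heat shock genes measured, 7 were lower and 0 higher in IR_HSO over Control (median log2 ratio -0.92), 9 were lower and 0 higher in IR_HSO over IR (median -0.92), and 0 were lower and 1 higher in IR over Control (median 0.06). Hsp90ab1 was at 1462 CPM in IR_HSO, 2958 CPM in IR and 3025 CPM in Control. Hspa8 was at 436, 912 and 1046 CPM, Hspe1 at 271, 514 and 535 CPM and Hsph1 at 41.4, 167 and 158 CPM. Hsph1 was 0.262-fold in IR_HSO over Control (0.207 to 0.335). The endoplasmic reticulum member Hspa5, at 338, 466 and 446 CPM, was not past 1.5-fold.

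This was shared with Foxp3- CD4 cells, in which 10 of 11 were lower in IR_HSO over Control (median -1.14) and 10 of 11 in IR_HSO over IR (median -1.01). Hsph1 was there at 38.1 CPM in IR_HSO, 156 CPM in IR and 154 CPM in Control. The difference of its log2 ratios between Foxp3+ and Foxp3- cells was 0.09 for IR_HSO over Control and 0.01 for IR_HSO over IR.

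Heat shock genes are known for promoter elements built from repeats of GAA and TTC. Since most measured genes of the list were lower in IR_HSO, promoter windows from RefSeq were searched for GAANNTTC, which reads the same on both strands. The windows are of mouse build GRCm38.p6, whereas the counts were made on GRCm39. Each window ran from 250 bases before to 50 bases after a start. Of the 12 listed genes 9 had a window, and 7 of them held the motif in at least 1 window. The motif was in 7.86% of all 32851 windows and 9.04% of all genes with a window. Hspa8, Hsp90aa1 and Hsp90ab1 had no window. Among the 7, Hspb1 was not measured and Hspa1b was not past 1.5-fold lower in IR_HSO over IR. Dnaja1 and Hspd1 also had windows without a match. The 7 are not separate matches: the windows of Hspd1 and Hspe1 overlap and share 1 site, and Hspa1a and Hspa1b are near-identical copies, between which the counting of reads is also uncertain. The windows of an inducible Hsp70 gene, of the cochaperone Dnaja1 and of the mitochondrial chaperonin Hspe1 are shown, with the match in capitals. A match is a description of the sequence and not a measured binding site.
Hspa1a, GRCm38.p6 chr17:34972107-34972406, minus strand: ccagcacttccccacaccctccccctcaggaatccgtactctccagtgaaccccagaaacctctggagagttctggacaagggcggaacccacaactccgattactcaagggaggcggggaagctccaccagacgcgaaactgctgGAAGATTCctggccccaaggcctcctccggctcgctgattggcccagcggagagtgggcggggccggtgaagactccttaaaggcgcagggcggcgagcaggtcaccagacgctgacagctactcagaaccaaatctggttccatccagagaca
Dnaja1, GRCm38.p6 chr4:40722218-40722517, plus strand: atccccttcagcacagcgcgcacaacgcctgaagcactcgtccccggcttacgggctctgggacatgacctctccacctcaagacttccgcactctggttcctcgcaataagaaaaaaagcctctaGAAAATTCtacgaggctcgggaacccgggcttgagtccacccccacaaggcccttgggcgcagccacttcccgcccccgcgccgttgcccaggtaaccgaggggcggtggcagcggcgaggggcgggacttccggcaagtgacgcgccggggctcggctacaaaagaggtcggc
Hspe1, GRCm38.p6 chr1:55087898-55088197, plus strand: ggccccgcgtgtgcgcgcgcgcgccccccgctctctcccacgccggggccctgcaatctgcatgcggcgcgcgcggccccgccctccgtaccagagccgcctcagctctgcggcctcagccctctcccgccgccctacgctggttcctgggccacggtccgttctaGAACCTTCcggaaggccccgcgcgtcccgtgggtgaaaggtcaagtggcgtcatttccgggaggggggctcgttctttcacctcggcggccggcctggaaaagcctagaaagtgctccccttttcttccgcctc

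Hspa1a was at 84.9 CPM in Foxp3+ T cells of IR_HSO, 152 CPM in IR and 90.8 CPM in Control. Dnaja1 was at 249, 422 and 471 CPM. These 2 genes and Hspe1 were all lower in IR_HSO than in IR, at 0.557-fold (0.491 to 0.631) for Hspa1a, 0.589-fold (0.547 to 0.634) for Dnaja1 and 0.528-fold (0.493 to 0.565) for Hspe1. Dnajb1, at 0.528-fold in IR_HSO over IR (0.460 to 0.605), had no match in its windows. Hspa5, at 0.724-fold (0.677 to 0.774) and so not past 1.5-fold, had none either. A part of the motif in these ratios was not tested.

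Cell cycle genes were highest in IR. Of 17 measured, 7 were lower and 0 higher in IR_HSO over IR (median log2 ratio -0.49), 12 were higher and 0 lower in IR over Control (median 0.88), and 5 of 14 were higher and 2 lower in IR_HSO over Control (median 0.44). Mki67 was at 46.8 CPM in IR_HSO, 69.3 CPM in IR and 22.3 CPM in Control. Top2a was at 33.4, 70.8 and 20.7 CPM and Stmn1 at 41.2, 110 and 22.3 CPM. These values depend on the rule: when barcodes with Cd79 or Cd8 UMIs were kept, the median of the list in IR over Control was -0.72, and the log2 ratio of Mki67 was -2.18 in IR_HSO over Control and -1.50 in IR over Control. A UMI of Mki67 or Top2a was found at equal depth in 6.66% of cells in IR_HSO, 7.77% in IR and 7.83% in Control. These shares and the CPM were in different orders, and no order is read from the shares.

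Foxp3- CD4 cells had larger differences in this list: 17 of 21 genes were lower in IR_HSO over IR (median -1.13) and 21 of 21 were higher in IR over Control (median 1.95). Mki67 was there at 76.7 CPM in IR_HSO, 190 CPM in IR and 37.7 CPM in Control. The log2 ratio of Mki67 in IR_HSO over IR was higher in Foxp3+ than in Foxp3- cells by 0.74 (0.46 to 1.03), and that of Top2a by 0.41 (0.10 to 0.71).

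**Figure D5:**
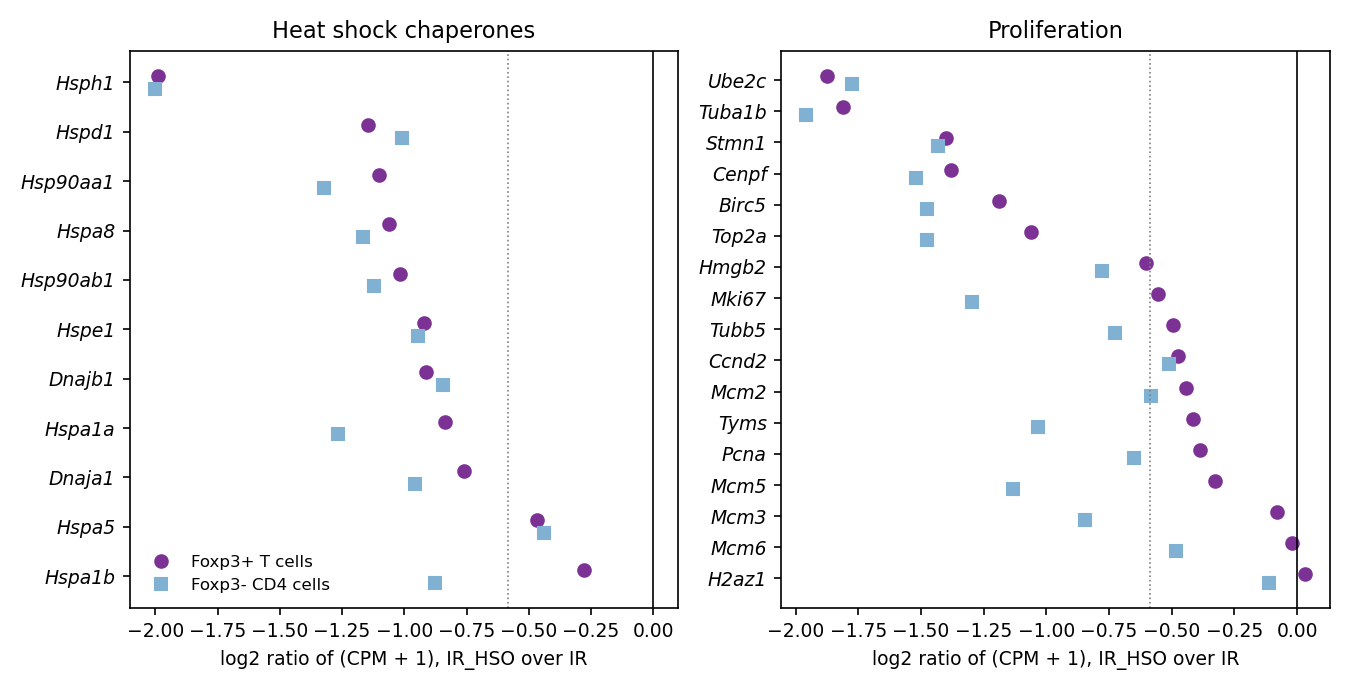
log2 ratio of CPM plus 1 for IR_HSO over IR (horizontal axes) of heat shock and cell cycle genes (rows) in Foxp3+ T cells (circles) and Foxp3- CD4 cells (squares); the dotted line marks 1.5-fold lower, and each point compares 1 library with 1 library. Of 11 heat shock genes, 9 are past it in Foxp3+ T cells and 10 in Foxp3- cells, and of the cell cycle genes 7 of 17 are past it in Foxp3+ T cells.

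Interferon-responsive genes were found in both directions. In IR_HSO over Control 6 of 23 were higher and 5 lower (median log2 ratio -0.02), and in IR over Control 3 were higher and 4 lower (median 0.02). Over all genes 16.3% were higher and 8.35% lower in IR_HSO over Control, and 12.8% and 6.3% in IR over Control. The 3 higher genes in IR over Control are thus near the share of all genes. Ifit3, an interferon-induced antiviral gene, was at 38.0 CPM in IR_HSO, 28.8 CPM in IR and 12.7 CPM in Control. Its relative Ifit2 was at 25.2, 19.3 and 31.9 CPM and was past 1.5-fold lower in IR over Control, as were Stat2 and the factor Irf1. The interferon-induced GTPase Gbp2 was at 21.3, 34.0 and 70.1 CPM, past 1.5-fold lower in both irradiated libraries. Ifi47, another GTPase of this kind, was at 69.3, 105 and 156 CPM, past 1.5-fold in IR_HSO over Control and at 0.672-fold in IR over Control. Gbp2 in Foxp3- CD4 cells was at 31.3, 32.1 and 35.6 CPM, and 14 of 26 interferon genes were higher and 0 lower in IR_HSO over Control. The log2 ratio of Gbp2 in IR_HSO over Control, Foxp3+ minus Foxp3- cells, differed by -1.54.

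Few genes of oxidative phosphorylation, glycolysis and antioxidant defence were past 1.5-fold. Of oxidative phosphorylation genes, 1 of 18 was lower in IR_HSO over Control and 0 of 18 in IR over Control. Of glycolytic genes, 1 of 13 was lower in each. Of antioxidant genes, 1 of 14 was lower in IR_HSO over Control, and in IR over Control 1 was higher and 1 lower. In the sterol list, Abca1, the cholesterol exporter, was at 34.7 CPM in IR_HSO, 18.7 CPM in IR and 1.59 CPM in Control, and 1.86-fold higher in IR_HSO than in IR (1.39 to 2.51). Of 13 sterol and fatty acid synthesis genes, 4 were higher and 5 lower in IR_HSO over Control. Of the fatty acid oxidation genes, 5 of 10 were higher in IR_HSO over Control and 3 of 9 in IR over Control, against 16.3% and 12.8% of all genes, with 0 of 10 past 1.5-fold between IR_HSO and IR. Of 13 MHC class I genes 0 were past 1.5-fold in any of the 3 comparisons. Of 13 genes of the unfolded protein response, 1 was lower in IR_HSO over Control and 2 were higher in IR over Control. T cell cytokine genes were mostly below 20 CPM: 4 were measured in IR_HSO over Control, with 0 past 1.5-fold, and 2 of 5 were higher in IR over Control.

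The genes with the largest differences by interval bound were in part set by single barcodes. In IR over Control and in IR_HSO over IR the list was led by pancreatic enzymes (Ctrb1, Try5, Prss2, Cpb1, Pnlip), and 1 IR barcode held 2920 of the 3942 Ctrb1 UMIs. In IR_HSO, S100a8 and S100a9 led, and 1 barcode held 2915 of 2972 S100a8 UMIs and 2363 of 2414 S100a9 UMIs. In Control, 1 barcode held 142 of the 143 Lyz2 UMIs. Ctrb1 was detected at equal depth in 28.2% of Foxp3+ T cells in IR_HSO, 45.4% in IR and 0 of 115 in Control, and in 28.3%, 44.1% and 0 of 808 Foxp3- CD4 cells. Cells with at least 20 UMIs of another cell type were 108 in IR_HSO, 57 in IR and 6 in Control.

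Cdkn1a, Phlda3, Psrc1 and Klf9, given above, were among the 12 highest in both irradiated libraries over Control also without each gene's highest barcode. On the lower side Ccnd1 and the receptor kinase Grk3 were not among the 12 lowest then: in Control 1 barcode held 14 of 32 Ccnd1 UMIs and 9 of 13 Grk3 UMIs. Ccnd1 (cyclin D1) was at 1.83 CPM in IR_HSO, 1.84 CPM in IR and 51.0 CPM in Control, and in Foxp3- CD4 cells at 1.51, 1.84 and 56.3 CPM. Without the highest barcode of each library it was at 1.66, 1.23 and 28.7 CPM in Foxp3+ T cells. Between the irradiated libraries, Lars2, a mitochondrial leucyl-tRNA synthetase, was at 642 CPM in IR_HSO and 213 CPM in IR, with 500.1 CPM in Control. Its ratio in IR_HSO over IR was 3.01 in Foxp3+ T cells and 2.99 in Foxp3- CD4 cells. Ribosomal RNA made up 4.54% of Foxp3+ T cell UMIs in IR_HSO, 1.11% in IR and 2.80% in Control, and its part in this ratio was not tested.

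Within each library the Foxp3+ T cells varied with their Ikzf2. Cells with an Ikzf2 UMI were 1227 of IR_HSO, 624 of IR and 94 of Control. Tnfrsf4 was 4.14-fold higher in Ikzf2+ than in Ikzf2- cells of IR_HSO (3.39 to 5.11) and 3.79-fold in IR (3.10 to 4.70). In Control the 26 Ikzf2- cells held 1 Tnfrsf4 UMI, and the ratio was 38.1 (6.74 to 1516). Nrp1 was 2.60-, 4.35- and 3.75-fold higher. Bcl2 was lower in Ikzf2+ cells of the irradiated libraries, at 0.463-fold in IR_HSO and 0.438-fold in IR, and was 1.16-fold in Control. S1pr1 was 0.353-, 0.350- and 0.569-fold. In the Ikzf2- cells Bcl2 was at 1330 CPM in IR_HSO, 1351 CPM in IR and 280 CPM in Control, beside the levels in Foxp3- CD4 cells given above. Tnfrsf4 was there at 183, 182 and 7.78 CPM, against 232, 112 and 17.7 CPM in Foxp3- CD4 cells. Whether other T cells with a stray Foxp3 UMI are among the Ikzf2- cells was not tested. Summed p53 targets in Ikzf2+ over Ikzf2- cells were 0.937-, 0.965- and 1.13-fold, a smaller difference than that of Bcl2 in both irradiated libraries. Cdkn1a alone was 0.674-fold (0.544 to 0.843) in IR_HSO and 0.709-fold (0.586 to 0.864) in IR. For Bax, Phlda3, Bbc3 and Ccng1 the intervals held 1 in both.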

How the data were processed

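Spleens were ground to single-cell suspensions and run on the 10x Genomics platform, per the labels' protocols. The deposited matrices hold raw UMI counts per gene and barcode. Their headers name Cell Ranger 7.0.1, and the submitters' processing notes name build GRCm39. Each of the 3 groups has 1 library, so no test was possible and no p-value is given.

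Barcodes were filtered and selected as the opening states. UMIs were summed over cells and scaled to CPM of the summed total. Ratios have exact conditional binomial 95% intervals of 2 Poisson counts, and shares have exact Clopper-Pearson intervals. Log2 ratios used CPM plus 1. Floors for a count of 0 use 3 UMIs. Both cover counting error only. Genes were measured at 20 CPM or more in either group and counted as higher or lower at 1.5-fold. This step was tested on simulated counts. Barcodes likely to be doublets were scored against simulated doublets, kept in the main values and left out in an alternative.

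The cells and gene lists were chosen with earlier results of these data known. Named genes were the 10 highest and 10 lowest in each comparison by the interval bound nearest to no change, after a screen for free RNA, the 15 highest and 10 lowest by the smallest bound over the libraries against Foxp3- CD4 cells, all markers, and examples from each list. Immunoglobulin, T cell receptor, haemoglobin, mitochondrial, ribosomal and predicted genes were left out of that ranking. Results on some genes that these rules name, and the split of the cells by one of them, are not reported here. Promoter sequences are from RefSeq. Python 3.11.15, NumPy 2.4.6, SciPy 1.17.1, pandas 2.3.3 and scikit-learn 1.9.0 were used.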

Additional observations from a re-analysis of the deposited data

Results flagged for a closer look

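Foxp3+ T cells and Foxp3- CD4 cells were at least 1.5-fold apart from the other library in opposite directions for few genes. In IR_HSO over Control these were 9 of 6253 genes measured in both, of which 8 had both intervals clear of 1. In IR over Control they were 6 of 6067, and in IR_HSO over IR 5 of 6298. A narrower count took the genes with both intervals clear of 1 that kept this, also with an interval clear of 1, without their highest barcode. It also left out the gene classes that the ranking of named genes left out. In this count 2, 1 and 1 genes were left, so the drop does not measure the effect of single barcodes alone. The difference between the cell groups was not tested for any of these genes, since each group has 1 library.

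Ccr2, a chemokine receptor of inflammatory homing, stood out in this way in IR_HSO over Control. It was at 27.9 CPM in Foxp3+ T cells of IR_HSO and 55.7 CPM in Control, a ratio of 0.501 (0.346 to 0.743), while in Foxp3- CD4 cells it was at 41.5 CPM in IR_HSO and 19.1 CPM in Control, a ratio of 2.18 (1.71 to 2.80). When barcodes with Cd79 or Cd8 UMIs were kept, its log2 ratio in Foxp3+ T cells was 0.0088, against -0.97 with them left out, so the opposite direction rests on that exclusion. It was -1.82 without likely doublets. Ccl4, a chemokine of activated lymphocytes, did so in IR_HSO over IR: its ratio was 0.503 (0.387 to 0.652) in Foxp3+ T cells, at 19.3 CPM in IR_HSO and 38.3 CPM in IR, and 1.78 (1.53 to 2.06) in Foxp3- CD4 cells. Memo1 was 0.636-fold (0.435 to 0.952) in Foxp3+ T cells in IR over Control and 1.61-fold (1.31 to 1.99) in Foxp3- CD4 cells. S100a8 was 155-fold (42.9 to 1280) in Foxp3+ T cells in IR_HSO over Control and 0.202-fold in Foxp3- CD4 cells, and 1 barcode held 2915 of its 2972 UMIs.

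Signals outside the main measurement were also compared with Control. Pancreatic enzyme transcripts made up 0.0721% of Foxp3+ T cell UMIs in IR_HSO and 0.466% in IR, above the 0.00175% in Control. In IR, 1 barcode held 11377 of the 15191 UMIs, so the gap between IR and IR_HSO rests largely on it. In Foxp3- CD4 cells the 6 exocrine pancreas genes stood at 507 CPM in IR_HSO, 527 CPM in IR and 0 CPM in Control. Barcodes that met the rule but for the mitochondrial limit numbered 44 in IR_HSO, 8 in IR and 3 in Control. They stand beside 1381, 772 and 120 cells that met the whole rule, so the counts are not read as a difference in share.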

How the results depend on the processing

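The order of the shares, IR_HSO above IR above Control, held under every alternative run, while their size did not. Of T barcodes, Foxp3+ cells of IR_HSO, IR and Control were 9.49%, 3.91% and 2.73% with at least 2 Foxp3 UMIs, 9.22%, 3.91% and 3.04% with a Cd4 UMI required, and 20.1%, 9.53% and 5.71% without the exclusion on Cd79 and Cd8. Thinned to 1000 UMIs they were 8.26%, 3.74% and 2.05%. Removing likely doublets gave 16.9% in IR_HSO and 7.71% in IR, and dropping the mitochondrial limit gave 17.0% in IR_HSO.

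Counts of genes at least 1.5-fold higher and lower were 1100 and 565 in IR_HSO over Control, 857 and 420 in IR over Control, and 287 and 284 in IR_HSO over IR. At 50 CPM they were 426 and 296, 326 and 159, and 116 and 158 in the same order. Without a filter on low counts they were 5050 and 2710, 5177 and 2709, and 1954 and 1798. At 2-fold they were 422 and 151, 300 and 109, and 47 and 92. With cells thinned to 2000 UMIs, 1033 genes were lower in IR_HSO over Control, 1291 higher and 898 lower in IR over Control, and 474 higher in IR_HSO over IR. In IR over Control, 653 genes were lower with at least 2 Foxp3 UMIs, 449 were higher without the exclusion on Cd79 and Cd8, and 670 were lower with mitochondrial, ribosomal, immunoglobulin and pancreatic genes left out of the totals, which also gave 546 higher in IR_HSO over IR. The cause was not tested.

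Of the lists, p53 targets at least 2-fold higher were 9 in each irradiated library over Control, identity genes were 5 at 2-fold in IR over Control, and 10 were higher in IR_HSO over Control with at least 2 Foxp3 UMIs. Directions reversed mainly without the exclusion on Cd79 and Cd8. There the proliferation median in IR over Control was -0.72, and log2 ratios in IR over Control were -1.50 for Mki67, -0.064 for Stmn1, -0.65 for Top2a, -0.087 for Hspa1a and -0.22 for Mdm2. In IR_HSO over Control they were -2.18 for Mki67, -1.43 for Stmn1, -1.82 for Top2a, -0.0035 for Mdm2 and 0.0088 for Ccr2. Top2a in IR_HSO over Control was also -0.15 with at least 2 Foxp3 UMIs and -0.15 with cells thinned, and thinning gave -0.41 for Il1rl1 in IR_HSO over Control and -0.33 in IR over Control. Of the values named for single genes, 5789 of those recomputed stayed inside the counting interval, 370 left it and 14 reversed. The 5789 include 372 values at 2-fold, 372 without a filter on low counts and 283 at 50 CPM. Those could not move, because these settings leave the ratio of a gene as it was, so they say nothing on how stable the ratios are. Only a ratio past 1.5-fold in the main values could count as reversed, so the 370 include smaller ratios that changed sign. Leaving out each gene's highest barcode, and leaving out cells with 20 or more UMIs of another cell type, were added after seeing the data. These 2 alternatives reversed none of the values in this sense.

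No paired analysis was possible because each group has 1 library, and leaving out a library would leave its group empty. The 120 Control cells held 627840 UMIs, which limits every ratio to Control.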

Other observations

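Some genes that the report does not describe led the ranking once the highest barcode of each gene was left out, an alternative chosen after seeing the data. Penk, which encodes the enkephalin precursor, was then at 94.8 CPM in Foxp3+ T cells of IR_HSO, 81.3 CPM in IR and 4.78 CPM in Control. With that barcode it was at 99.2, 92.3 and 23.9 CPM, since 1 Control barcode held 12 of its 15 UMIs. With all barcodes Foxp3- CD4 cells had 39.4, 21.96 and 1.15 CPM. Also with all barcodes, Gadd45g, a stress-induced gene, was at 71.6, 88.6 and 11.1 CPM, and the inhibitory receptor Lilrb4a at 28.2, 27.9 and 1.59 CPM. For these 3 genes both irradiated libraries were above Control in Foxp3+ and in Foxp3- cells.

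Cxcl10, an interferon-induced chemokine, was at 41.9 CPM in Foxp3+ T cells of IR_HSO, 57.0 CPM in IR and 4.78 CPM in Control. Sox4 was at 7.81, 17.8 and 38.2 CPM, Tesc at 39.5, 90.5 and 135 CPM and the ganglioside synthase St8sia1 at 7.47, 13.8 and 43.0 CPM. The order of the libraries was the same for these 3 genes, with IR_HSO lowest.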
